A study of Homo sapiens with 2 samples.

Results

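The genes described here encode proteins of the azurophil granule, the primary granule of neutrophils and monocytes, together with lysozyme. They were taken by symbol from the deposited gene table, and all 10 were found among its 50868 genes: the peroxidase gene MPO, the serine protease genes PRTN3, ELANE and CTSG, their inactive relative AZU1, the lysozyme gene LYZ, the proteoglycan gene SRGN, the ribonuclease genes RNASE2 and RNASE3, and the protease inhibitor gene SERPINB1. All 10 passed the minimum of 10 reads summed across the libraries, as did 15384 genes of the table. RNA was sequenced from MOLM-13, a human acute myeloid leukemia (AML) cell line of monocytic character that carries the KMT2A::MLLT3 fusion. There was 1 library labelled Vector (OE-Control), from cells with the empty vector, and 1 library labelled as over-expression of UNC5B (OE-UNC5B), a receptor for netrins. By the methods, the UNC5B construct was a FLAG-tagged coding sequence under the CMV promoter in a lentivirus that also carries mCherry and puromycin resistance, and transduced cells were selected with puromycin. The methods do not state a single-cell cloning step, and whether Vector cells went through the same selection is not given in the sources used here.

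Azurophil granules are filled at the promyelocyte stage, when MPO and the elastase-type proteases are made in large amounts, and messages for these proteins decline as granulocytes mature. The proteases are stored in active form, bound to the sulfated chains of serglycin (the product of SRGN), and kill microbes inside phagosomes. SERPINB1 is a cytosolic inhibitor that inactivates neutrophil elastase, proteinase 3 and cathepsin G when they leak from granules. In AML these messages mark the myeloid lineage of the blasts, and MPO is a diagnostic marker of it.

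The libraries held 13715566 counted reads (Vector) and 15637137 counted reads (labelled OE-UNC5B), and 3 reads corresponded to 0.219 and 0.192 CPM, the reads scaled to library size. No read of UNC5B was counted, with 0 in Vector and 0 for the labelled overexpression, so every direction below rests on the label. With 1 library per group no test of the conditions could be made. The 95% intervals were computed from the reads, by the Clopper-Pearson method for shares and log2 fold changes and by a normal approximation for differences between genes, FPKM levels and FPKM ratios. All of them cover counting error only and leave out the variation between cultures. Log2 fold changes are the library labelled OE-UNC5B minus Vector, on counts scaled with TMM factors and with 0.5 reads added. A gene was called when it differed by at least 2-fold and its interval left out no change. All 10 of the myeloid markers examined had reads, among them FLT3 with 4067 and 6395 reads and CD33 with 1775 and 2299 reads, and together they held 782 CPM in Vector against 1028 CPM in the library labelled OE-UNC5B. CD14 had 4 and 5 reads; it and CD33 were named after their values were seen. CLEC12A, a lectin receptor of myeloid cells, was the 1 called gene among the 9 tested myeloid markers, beside 3.71% of all tested genes called lower. It fell from 134 to 33 reads, a log2 fold change of -2.24 (-2.85 to -1.70). Of 8 markers of mature neutrophils, 7 had 0 reads in both libraries and CXCR2 had 130 and 142. The 7 fibroblast markers together had 139 reads in Vector against 17 in the library labelled OE-UNC5B, with DCN, PDGFRA and POSTN at 0. Of these, 3 were tested, and COL3A1 (108 and 6 reads) and COL1A1 (21 and 9 reads) were called lower, beside the same 3.71%. With 1 added to FPKM in place of counts both calls were lost, at -0.82 and -0.10, that of COL1A1 also with 0.1 added, at -0.59. The 6 T cell markers had 760 and 688 reads, with TRAC holding 379 and 395 and CD2 at 0. The 6 B cell markers (CD79A the highest) had 5 and 15 reads, the 6 erythroid markers (HBB alone) 14 and 8, the 6 megakaryocyte markers (ITGA2B alone) 2 and 2, the 6 epithelial markers (KRT18 alone) 5 and 2 and the 6 mast cell or basophil markers 733 and 590, of which GATA2 held 718 and 583. The part of other cells in the differences below was not tested.

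The promoters of 6 of the 10 genes were found in the RefSeq table used here (GRCh38.p14), each as the 250 bases before and the 50 bases from the transcription start. Those of PRTN3, AZU1 and CTSG are shown because they span the range of differences among the protease family, and those of RNASE2 and RNASE3 because the windows are near copies where they align. Capitals mark matches, on either strand, to short motifs of factors known to drive granule genes, namely C/EBP (TTNNGNAA), PU.1 (GAGGAA) and MYB (CAACTG, otherwise CAACGG, otherwise TAACTG, otherwise TAACGG). Matches to RUNX (TGTGGT, otherwise TGCGGT) were also sought. None of the marked matches overlap. PRTN3 is read on the plus strand at chr19:840749-841048, AZU1 on the plus strand at chr19:827587-827886, CTSG on the minus strand at chr14:24576201-24576500, RNASE2 on the plus strand at chr14:20955237-20955536 and RNASE3 on the plus strand at chr14:20891135-20891434.
PRTN3: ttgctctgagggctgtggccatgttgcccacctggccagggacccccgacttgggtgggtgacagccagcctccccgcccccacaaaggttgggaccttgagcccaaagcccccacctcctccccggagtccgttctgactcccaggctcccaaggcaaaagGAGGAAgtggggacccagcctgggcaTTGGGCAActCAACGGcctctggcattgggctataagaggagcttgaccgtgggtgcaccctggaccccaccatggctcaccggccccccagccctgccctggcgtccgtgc
AZU1: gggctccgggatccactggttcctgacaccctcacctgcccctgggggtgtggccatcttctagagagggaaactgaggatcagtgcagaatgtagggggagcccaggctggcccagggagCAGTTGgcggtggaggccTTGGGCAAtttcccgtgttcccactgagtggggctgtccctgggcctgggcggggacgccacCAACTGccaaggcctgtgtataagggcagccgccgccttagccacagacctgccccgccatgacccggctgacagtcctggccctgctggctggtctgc
CTSG: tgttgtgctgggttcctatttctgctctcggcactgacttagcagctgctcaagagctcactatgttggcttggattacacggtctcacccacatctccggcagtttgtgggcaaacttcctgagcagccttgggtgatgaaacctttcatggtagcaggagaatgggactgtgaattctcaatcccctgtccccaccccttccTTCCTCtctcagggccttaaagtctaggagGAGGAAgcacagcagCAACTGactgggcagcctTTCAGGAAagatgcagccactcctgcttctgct
RNASE2: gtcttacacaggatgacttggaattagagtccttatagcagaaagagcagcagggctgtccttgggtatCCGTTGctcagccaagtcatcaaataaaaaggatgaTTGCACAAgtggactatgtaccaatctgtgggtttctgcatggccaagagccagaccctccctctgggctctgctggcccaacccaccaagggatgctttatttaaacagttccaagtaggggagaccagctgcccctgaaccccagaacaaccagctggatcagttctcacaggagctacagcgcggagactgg
RNASE3: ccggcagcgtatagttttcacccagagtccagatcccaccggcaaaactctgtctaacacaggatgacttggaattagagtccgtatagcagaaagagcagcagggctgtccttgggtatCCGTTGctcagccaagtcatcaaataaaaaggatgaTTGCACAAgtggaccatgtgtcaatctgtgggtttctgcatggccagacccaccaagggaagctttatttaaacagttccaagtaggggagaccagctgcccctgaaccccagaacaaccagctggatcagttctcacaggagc

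Each of the 5 windows shown holds 1 C/EBP match and at least 1 MYB match. The C/EBP match of PRTN3 lies at bases -62 to -55 from the start, with a PU.1 match at -88 to -83 and a MYB match at -52 to -47. AZU1 has the same C/EBP letters, TTGGGCAA, at -111 to -104 and MYB matches at -129 to -124 and -49 to -44, but no PU.1 match. The start used for AZU1 lies inside the counted gene, which begins further upstream at 825097. CTSG carries PU.1 matches at -46 to -41 and -16 to -11, a MYB match at -1 to 5 and a C/EBP match inside the transcribed part at 18 to 25. RNASE2 and RNASE3 share their C/EBP letters, at -145 to -138 in RNASE2 and -94 to -87 in RNASE3, and the windows align with 243 identical bases, 6 mismatches and 102 gap positions, so 97.6% of the aligned bases are identical. SERPINB1 has no match to any of these motifs in its window, and none of the 6 windows has a RUNX match. Among 35116 promoter windows of the same length, 36.8% hold the C/EBP letters, 27.9% PU.1, 25.7% MYB and 19.6% RUNX, so a match is a description of the sequence and not a site of binding.

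The summed message of the 10 genes was lower in the library labelled OE-UNC5B. In Vector they took 156120 reads, 1.14% of the library (95% interval 1.13 to 1.14), and in the library labelled OE-UNC5B 91936 reads, 0.588% (0.584 to 0.592). The share was thus 1.94 times as large in Vector, a difference of -0.55 percentage points, and the log2 fold change of the sum on the TMM scale had an interval of -1.01 to -0.99. In bulk RNA, fewer cells that express these genes and less of their RNA per cell cannot be told apart. LYZ, SRGN and PRTN3 made up most of the reads in both libraries. Leaving out PRTN3 alone, the difference of the share was -0.39 percentage points.

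**Figure D1:**
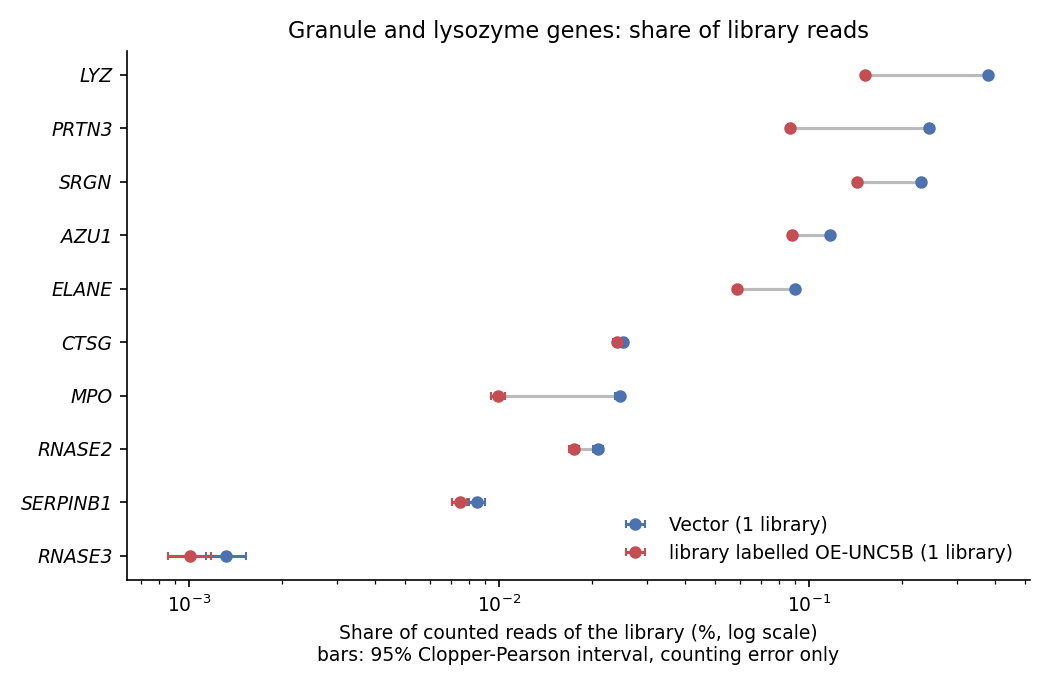
Share of all counted reads (percent, log scale) taken by each of the 10 genes in Vector (blue) and the library labelled OE-UNC5B, 1 library each, with 95% Clopper-Pearson intervals of the reads. LYZ fell from 0.377% to 0.152% and PRTN3 from 0.243% to 0.0871%, while the shares of CTSG, 0.0251% and 0.0241%, lie close together.

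All 10 genes were lower at any fold, against 50.6% of all tested genes, and their median log2 fold change was -0.56 beside -0.01 for all tested genes. PRTN3, LYZ and MPO were called lower, 3 of 10 genes, and none was called higher. Over all tested genes, 3.71% were called lower and 3.8% higher, and among the 5932 genes with at least 1000 reads, as 9 of the 10 have, 1.2% were called lower. At 1.5-fold, 5 of 10 were lower against 8.76% of all tested genes. The intervals of all 10 genes lay below no change on the TMM scale, but for 2 of them, CTSG and RNASE3, the intervals of the plain shares overlap between the libraries. The share of all tested genes with such intervals was not computed, and with many reads even the small difference of CTSG, at -0.11, passes. No result about the 10 genes is drawn from this count. With a trend on GC content and length subtracted, the median of the 10 genes was -0.31 and CTSG was higher at 0.11, while PRTN3, LYZ and MPO were still called. The same trend took PRTN3 to -1.24, above LYZ at -1.32 and MPO at -1.30, and it took AZU1 to -0.15, ELANE to -0.37, RNASE2 to -0.15 and RNASE3 to -0.26, so the sizes and the order of the differences depend on it.

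**Figure D2:**
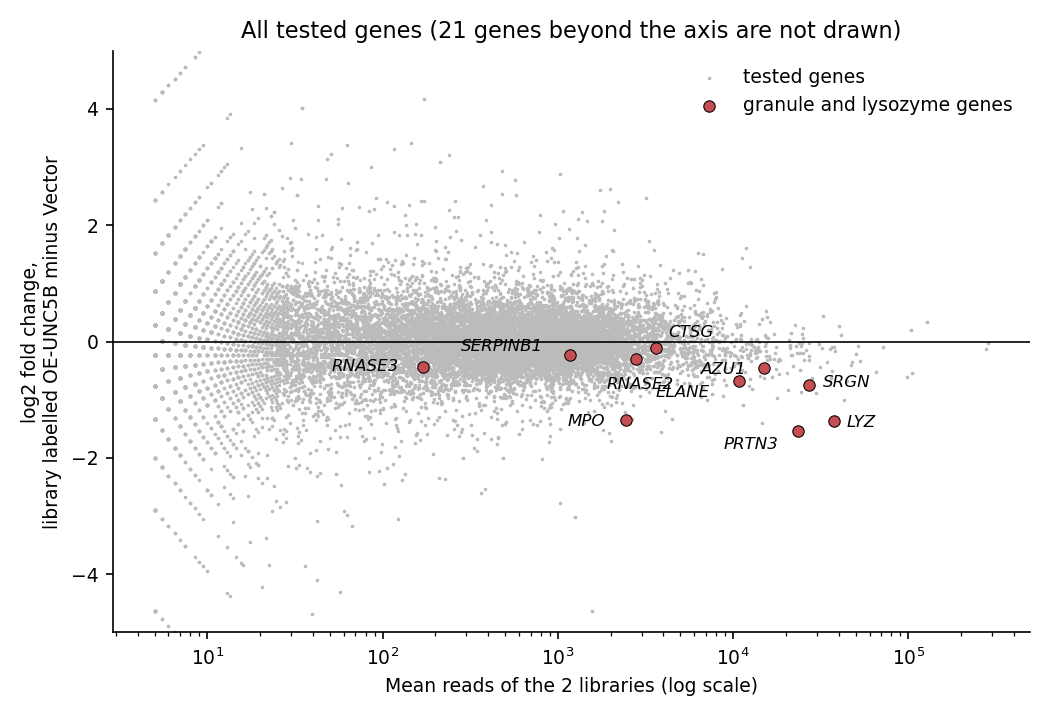
Log2 fold change (library labelled OE-UNC5B minus Vector) of every tested gene against its mean reads (log scale), 1 library each, with the 10 granule and lysozyme genes in red; 21 genes lie beyond the axis. All 10 lie below 0, and LYZ, PRTN3 and SRGN are among the genes with the most reads.

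The serine proteases of the granule and their inactive relative AZU1 moved by very different amounts. PRTN3 encodes proteinase 3, the target of autoantibodies in vasculitis. It had 33387 reads in Vector against 13614 in the library labelled OE-UNC5B, a log2 fold change of -1.53 (-1.56 to -1.50), or 2.89-fold lower, the lowest of the 10 on this scale but not after subtracting the GC content and length trend. Of all tested genes, 2.10% were as low or lower. ELANE encodes neutrophil elastase, whose mutations cause congenital and cyclic neutropenia. It had 12355 and 9149 reads, a log2 fold change of -0.67 (-0.71 to -0.63), and 10.2% of tested genes were as low or lower.

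AZU1 encodes azurocidin, an antimicrobial protein of the same fold that has lost its protease activity. Its reads were 16026 in Vector against 13807 in the library labelled OE-UNC5B, a log2 fold change of -0.45 with an upper bound of -0.42, so it was 1.37-fold lower. CTSG encodes cathepsin G, a protease of chymotrypsin-like specificity that is not part of the chromosome 19 cluster. It had 3446 reads in Vector and more, 3767, in the deeper library labelled OE-UNC5B, a log2 fold change of -0.11 (-0.18 to -0.04), the smallest difference of the 10. Its value with library totals in place of TMM was -0.06. The 4 genes together took 0.475% of the reads in Vector against 0.258% in the library labelled OE-UNC5B.

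LYZ and MPO fell by nearly the same amount. LYZ encodes lysozyme, which cleaves bacterial cell walls and is made by monocytes as well as granulocytes. It had the most reads of the 10 in both libraries, 51742 in Vector against 23700 in the library labelled OE-UNC5B, a log2 fold change of -1.36 (-1.39 to -1.34), or 2.57-fold lower. MPO encodes myeloperoxidase, the heme enzyme that makes hypochlorous acid. It had 3363 and 1553 reads, a log2 fold change of -1.35 (-1.44 to -1.26), or 2.55-fold lower. The 2 log2 fold changes differed by 0.01 (-0.08 to 0.10). Of the 50-base words in the main LYZ transcript, 10.3% also occur in other genes, so a part of its count may depend on how such reads were assigned. Exons of LYZ also overlap those of a gene on the other strand over 599 nt, and the use of strand in counting is not known.

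SRGN, whose protein packs proteases into the granule, was lower by less than 2-fold. It had 31589 reads in Vector against 22290 in the library labelled OE-UNC5B, a log2 fold change of -0.74 (-0.76 to -0.72), or 1.67-fold lower. Of all tested genes, 8.70% were as low or lower. Among genes with at least 1000 reads this was 3.12%, beside 4.35% for ELANE and 0.20% for PRTN3.

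The ribonucleases and the inhibitor changed little. RNASE2 encodes eosinophil-derived neurotoxin, which granules of neutrophils and monocytic cells also hold, and it had 2863 and 2729 reads, a log2 fold change of -0.31 (-0.38 to -0.23). RNASE3 encodes eosinophil cationic protein and had the fewest reads of the 10, 181 and 158, with a log2 fold change of -0.43 (-0.75 to -0.12). These genes share some sequence with each other and with RNASE2CP. Of the 50-base words, 18.2% of RNASE2 and 5.26% of RNASE3 occur in these other genes, so a part of the counts may depend on read assignment. Summed, they had a log2 fold change of -0.31 (-0.39 to -0.24). SERPINB1 had 1168 reads in Vector against 1169 in the library labelled OE-UNC5B, a log2 fold change of -0.24 (-0.35 to -0.12).

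**Figure D3:**
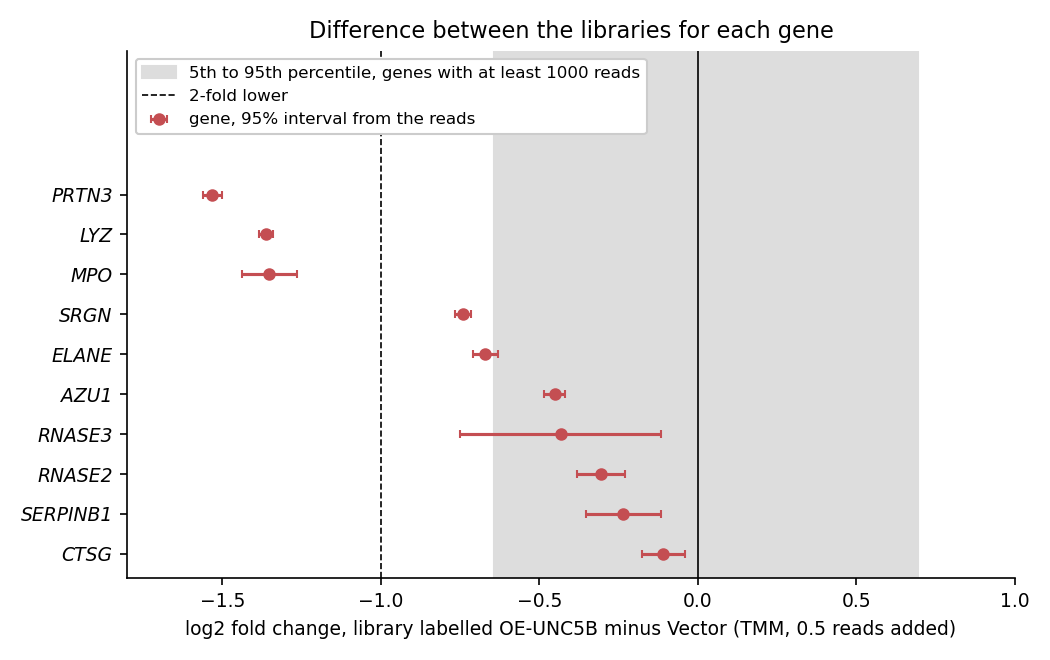
Log2 fold change of each of the 10 genes (library labelled OE-UNC5B minus Vector, TMM-scaled counts), with 95% intervals from the reads of 1 library per group; the grey band spans the 5th to 95th percentile of genes with at least 1000 reads, -0.64 to 0.69. PRTN3, LYZ and MPO lie beyond the 2-fold line, SRGN and ELANE near the edge of the band and the other 5 inside it.

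Beyond counting error, the log2 fold changes of the 10 genes were not all alike between the libraries. Of the 45 pairs, 37 differed in log2 fold change by more than the counting interval on the TMM scale. With many reads small differences pass that interval, which leaves out variation between cultures, and no pairs of other genes were compared. Once the GC and length trend is removed, PRTN3 was no longer below LYZ and MPO, and AZU1 and RNASE2 were both at -0.15, so some of these differences turn or vanish. The pairs within the counting interval on the TMM scale include MPO with LYZ, CTSG with SERPINB1, at a difference of 0.13 (-0.01 to 0.26), and RNASE2 with RNASE3, at 0.13 (-0.19 to 0.44). RNASE3 with its few reads was in 5 of these 8 pairs. PRTN3, LYZ and MPO, grouped because they were called lower, together fell from 56.7% to 42.3% of the reads of the 10 genes. This fall follows from how they were chosen. The other 7 genes had a summed log2 fold change of -0.59 (-0.60 to -0.57).

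**Figure D4:**
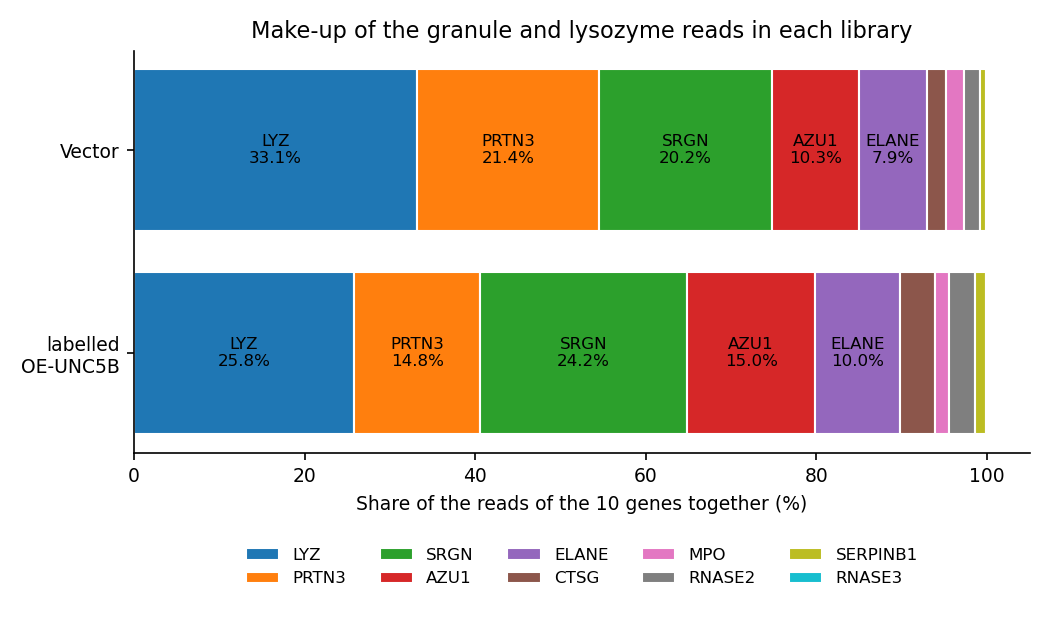
Share of each gene in the summed reads of the 10 genes (percent), for Vector and the library labelled OE-UNC5B, 1 library each. LYZ goes from 33.1% to 25.8% and PRTN3 from 21.4% to 14.8%, while SRGN goes from 20.2% to 24.2% and AZU1 from 10.3% to 15.0%; RNASE3, at 0.116% and 0.172%, is too thin to see.

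Levels of different genes can be compared only per length, for which the deposited FPKM were used. PRTN3 had the highest level in Vector with 1855 FPKM, ahead of LYZ with 1455 FPKM and SRGN with 1146 FPKM. In the library labelled OE-UNC5B SRGN led with 709 FPKM, followed by PRTN3 with 664 FPKM and LYZ with 585 FPKM. ELANE, AZU1, RNASE2 and CTSG came next in this order in both libraries, at 635, 504, 276 and 126 FPKM in Vector. MPO and SERPINB1, at 20.5 and 20.9 FPKM, did not differ beyond their counting intervals in the library labelled OE-UNC5B, and all other neighbours in both orders did. The lengths behind the FPKM values are mostly longer than the main transcripts, so the order depends on them. Per base of the main transcript LYZ was above PRTN3 in both libraries and AZU1 above ELANE in both. In the library labelled OE-UNC5B the order by main transcript began SRGN, LYZ, AZU1, PRTN3, and CTSG stood above RNASE2 and MPO above SERPINB1.

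Ratios of FPKM within a library do not depend on how the libraries were scaled. PRTN3 was 2.92 times ELANE in Vector (2.86 to 2.98) and 1.61 times in the library labelled OE-UNC5B (1.57 to 1.65). LYZ was 1.27 times SRGN in Vector but 0.825 times in the library labelled OE-UNC5B. The ratio of RNASE2 to RNASE3 was 15.1 in Vector and 16.5 in the other library, with overlapping intervals.

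AZU1, PRTN3 and ELANE lie side by side on the plus strand of chromosome 19, at 825097 to 832018, 840960 to 848175 and 851014 to 856247 (GRCh38), each with 5 exons in its main transcript. Neighbours in this row differed in their fall, with log2 fold changes of -0.45, -1.53 and -0.67. PLPPR3, to the left of AZU1, had 6034 and 5537 reads, a log2 fold change of -0.36, and CFD, the complement factor D gene to the right of ELANE, had 3904 and 3869 reads, a log2 fold change of -0.25. Beyond PLPPR3, PTBP1, a splicing factor gene named after its values were seen, had 8165 and 4987 reads and a log2 fold change of -0.95, lower than AZU1 and ELANE. MPO, on the minus strand of chromosome 17 from 58269856 to 58280935, lies 1338 nt from LPO, the lactoperoxidase gene, which went the other way with 26 and 152 reads and a log2 fold change of 2.29 (1.70 to 2.97). Of 44 neighbouring genes tested around the loci of the 10 genes, LPO and MYLK4 were called higher and GZMH and AL442635.1 lower. This is near the shares of 3.8% higher and 3.71% lower over all tested genes, and the median of the 44 was -0.12. With 1 added to FPKM none of these 4 calls held, at 0.64 for LPO, 0.24 for MYLK4, -0.56 for GZMH and -0.98 for AL442635.1, whose call was also lost with the GC content and length trend, at -0.89. YEATS4, to the right of LYZ, had 561 and 932 reads, a log2 fold change of 0.49. AL442635.1, with 56 and 30 reads, lies inside SRGN, and its reads may not be separable from it.

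**Figure D5:**
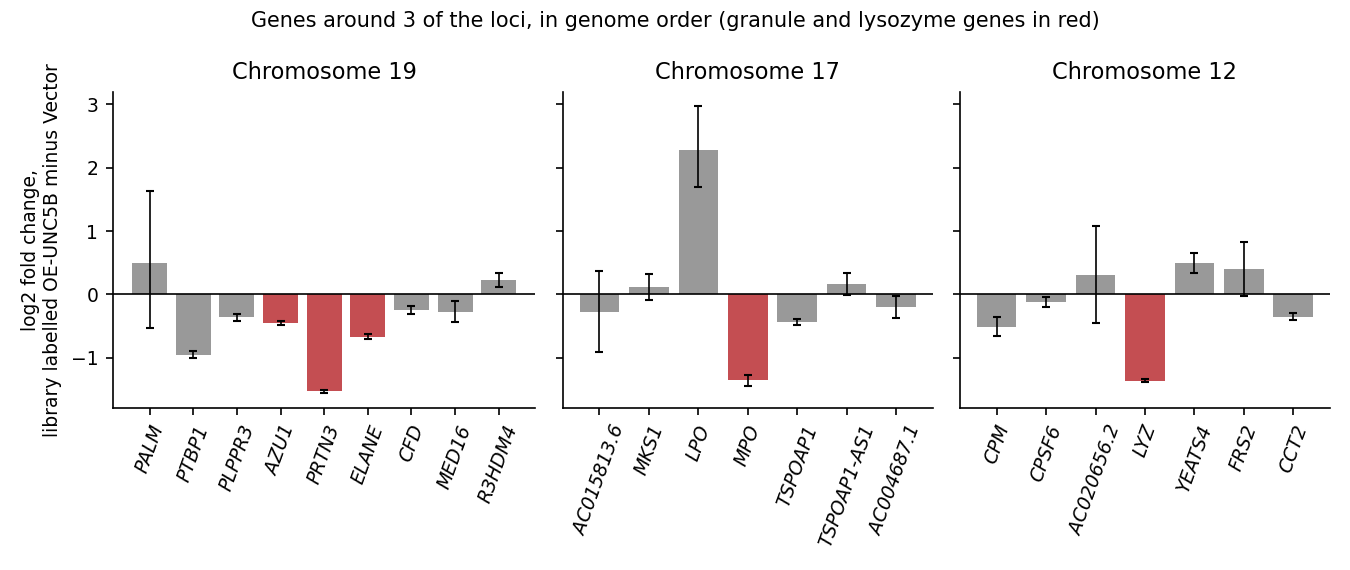
Log2 fold change (library labelled OE-UNC5B minus Vector) at 3 of the loci, with the granule and lysozyme genes in red and their nearest tested neighbours in grey, in genome order, 1 library each, with 95% intervals from the reads. PRTN3 at -1.53 lies between AZU1 at -0.45 and ELANE at -0.67, with PLPPR3 at -0.36 and CFD at -0.25 flanking the row, and LPO at 2.29 stands beside MPO at -1.35.

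Of 14 genes for other proteins of the azurophil granule 8 were tested, with a median log2 fold change of -0.18. Of these 8, 7 were lower at any fold, beside 50.6% of all tested genes. None was called, and at 3.71% lower and 3.8% higher over all tested genes few or no calls would be found among so few. The most abundant, the protease gene PRSS57, had 5873 and 5176 reads, a log2 fold change of -0.42. CTSC, named after its values were seen because it encodes the enzyme that activates these proteases, had 3172 and 3387 reads and a log2 fold change of -0.14. The defensin genes DEFA1, DEFA1B, DEFA3 and DEFA4 were at 0 reads in both libraries. Of 16 genes of the later specific and gelatinase granules, 9 had 0 reads, LTF, LCN2 and MMP8 among them. The 5 tested had a median of -0.87, with 4 of them lower at any fold beside the same 50.6%. HP and SLPI were called lower, HP from 161 to 75 reads and SLPI from 118 to 43 reads, and the most abundant, CYBA of the NADPH oxidase, had a log2 fold change of -0.67. With 1 added to FPKM, HP was at -0.46 and no longer called, while SLPI was at -1.46. CHI3L1 at -0.87 and CYBB at 0.55, the other oxidase subunit gene of the list, were not called and were named after their values were seen.

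Among 12 relatives of the granule serine proteases, 5 were tested, with a median of -1.59. That is the value of TPSAB1, named after its values were seen, with 11 and 4 reads and an interval of -3.80 to 0.06. The abundant PRSS57 and CFD were at -0.42 and -0.25. GZMH (14 and 3 reads) and TPSB2 (23 and 5 reads) were called lower, where the share over all tested genes is 3.71%. TPSB2 has a near copy in TPSAB1, so its count is uncertain. With 1 added to FPKM both calls were lost, at -0.56 and -0.58. Of 14 inhibitors of granule proteases, 9 were tested and 4 were called lower, beside the same 3.71%, with a median of -0.69. They were SLPI, SERPINB10 from 148 to 51 reads, SERPINB2 from 17 to 3 reads and SERPINA1 from 12 to 4 reads, while the most abundant, the cystatin gene CSTA, had 1700 and 2538 reads and a log2 fold change of 0.34. With 1 added to FPKM the calls of SERPINB2, at -0.31, and SERPINA1, at -0.07, were lost, that of SERPINA1 also with 0.1 added, at -0.52, and SERPINB10 was at -1.10.

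Eosinophil granule genes were mostly near 0. PRG2, which encodes major basic protein, was the exception and fell from 639 to 130 reads, a log2 fold change of -2.53 (-2.82 to -2.26), while CLC was at 0. Of 12 other RNase A family and inhibitor genes 2 were tested and none was called. That is likely for 2 genes at shares of 3.71% lower and 3.8% higher over all tested genes. RNASE6, the highest of them in FPKM, had 456 and 545 reads. Of 9 lysozyme relatives, LYG1 alone had reads, 6 and 22, and was called higher, a call lost with 1 added to FPKM, at 0.60. PRG2 and LYG1 were each the only tested gene of their list, so no share can be set beside those over all tested genes.

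No gene of the machinery that makes and loads granules was called, beside shares of 3.71% lower and 3.8% higher over all tested genes, at which few or no calls would be found in lists of this size. None of the 14 tested genes of chondroitin sulfate synthesis, which builds the chains of serglycin, was called, and their median was 0.05, with the sulfotransferase gene CHST11, the highest in FPKM, at 0.41. None of the 8 heme synthesis genes was called, with a median of -0.07 and ALAS1, the first enzyme, at -0.35. Of 20 genes of granule sorting and congenital neutropenia none was called, with a median of -0.08, but single genes went both ways. JAGN1, needed for protein secretion in neutrophils, was at -0.95 (-1.13 to -0.77) and CXCR4, the most abundant in FPKM, at -0.66, while HAX1 was at 0.79 and VPS13B at 0.74. These 4 lie outside the 5th to 95th percentile of genes with at least 1000 reads, and JAGN1, HAX1 and VPS13B were named after their values were seen.

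Of 12 myeloid transcription factor genes 11 were tested, with a median of -0.16. Of these 11, 1 was called lower and 1 higher, beside 3.71% and 3.8% over all tested genes. CEBPA, which starts the granulocyte program, was the highest of them in FPKM, with 7227 and 7626 reads and a log2 fold change of -0.16. CEBPE, needed for the later granules, was called lower from 48 to 8 reads, a log2 fold change of -2.75 (-4.11 to -1.73). CEBPB, used in emergency granulopoiesis and in monocytes, was called higher from 187 to 557 reads, with an interval of 1.10 to 1.58. SPI1, GFI1, MYB and RUNX1, named after their values were seen because they regulate granule genes, had log2 fold changes of -0.23, -0.14, 0.03 and 0.04.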

How the data were processed

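RNA of MOLM-13 cells was sequenced in 1 library per group, from VAHTS Universal V6 libraries on an Illumina HiSeq. For each gene the authors deposited a raw count of reads, not normalized. The deposited FPKM values are reads scaled to gene length and library size. The submitters' processing notes name bcl2fastq 2.19, HISAT2 2.0.4, StringTie 1.3.0 and GRCh38. The annotation release, the counting tool and its use of strand are not given in the sources used here. Groups were taken from the labels.

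TMM factors over all genes (edgeR 4.0.16 in R 4.3.3) set the scale, 0.5 reads were added, and a minimum of 10 reads summed across the libraries was required. Intervals at 95% followed the Clopper-Pearson method (scipy 1.17.1) for shares and log2 fold changes, and a normal approximation for differences between genes, FPKM levels and FPKM ratios. No test of the conditions could be fitted with 1 library per group, so calls rest on a 2-fold difference and the counting interval. Transcript lengths, GC content and shared 50-base words were taken from GENCODE 44, which held 49659 of the identifiers. Length and GC content were known for 98.8% of the genes tested. Promoters came from RefSeq. The genes, the context lists and the markers were chosen with earlier results of these data known. The text names the 10 genes, UNC5B, the called genes and the gene highest in FPKM of each list, and neighbours only where called or adjacent. Some listed genes at 0 reads are also named, as are genes that share sequence with those above. Other genes named after their values were seen are marked as such. The settings varied were the scaling (library totals, size factors of DESeq2 1.42.0), the call (the fold alone, or with an exact binomial test on reads), TMM without the 10 genes, 2 reads added, no filter, at least 50 reads, FPKM with 0.1 or 1 added, folds of 1.5 and 4, a GC content and length trend, RNASE2 and RNASE3 summed, and other denominators of the share. The calling procedure was tested on counts simulated with counting error only, so that test does not cover variation between cultures.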

Additional observations from a re-analysis of the deposited data

How the results depend on the processing

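PRTN3, LYZ and MPO stayed the 3 called genes under every alternative tried except the other fold thresholds, which called 5 genes at 1.5-fold and 0 at 4-fold. Subtracting a trend on GC content and length turned CTSG to 0.11, so that 1 of the 10 genes was higher, and moved the median to -0.31. The AZU1, PRTN3 and ELANE transcripts are rich in GC. The difference of the summed share was -0.61 percentage points over protein-coding reads, -0.60 without mitochondrial genes, -0.82 as a share of summed FPKM and -0.39 without PRTN3. Over all genes, 1403 were higher and 1348 lower at 1.5-fold, 154 and 169 at 4-fold, 359 and 297 with at least 50 reads and 160 and 123 with 1 added to FPKM, and 373 were lower with 0.1 added. No paired analysis was possible because each group held a single library, and for the same reason no replicate could be left out. The depth limits RNASE3 and the context genes with few reads.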
